A study of Mus musculus with 58 samples.

Results

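Regions that carried a peak in nearly every list were collected from FLAG-tag chromatin immunoprecipitation sequencing of 7 nuclear proteins in mouse embryonic stem cells. Peaks of all 9 lists were merged wherever they overlapped by at least 1 bp, which gave 67384 regions from 156215 peaks. Regions with a peak in at least 8 of the 9 lists were kept, and 505 regions met this rule, 0.749% of all merged regions. Of these, 119 (0.177% of all regions) held a peak of every list and 386 lacked 1 list. The regions were chosen by the presence of peaks, so their number, widths and scores are described here and not tested.

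All 9 libraries were made from embryonic stem cells of strain 129/Ola that received no treatment, with 5 µg of FLAG antibody. PSPC1 was precipitated in 2 libraries from AID-FB(KI)-PSPC1 cells, a line derived from CJ9 cells in which the PSPC1 gene itself carries an AID degron and FB tag. These knock-in cells were fixed with 3% formaldehyde. The other 7 libraries, 1 for each line, came from BirA J1 cells that overexpress an FB-tagged protein. CIRH1A, UTP3 and UTP6 cells were fixed with 3% formaldehyde, and the overexpressed PSPC1 cells with 1%. The hnRNPU, SAFB and SAFB2 cells were fixed with 2 mM DSP, a protein crosslinker, followed by 1% formaldehyde, and their chromatin was treated with DNase I and purified a second time on streptavidin beads. Every protein except knock-in PSPC1 has a single library and no replicate check. Nothing in the labels says that the knock-in libraries came from separate cultures. Fixation, purification, parent line and tag dosage differ between these groups and cannot be told apart from the protein. No list from untagged cells was used, so how many of the 505 regions would carry a peak without a tagged protein was not tested. Peak lists cannot be checked against cell type markers.

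The precipitated proteins bind RNA or sit in RNA-rich nuclear bodies. PSPC1 is a core protein of paraspeckles, hnRNPU (also called SAF-A) and the SAFB proteins are scaffold attachment factors that bind both RNA and chromatin, and CIRH1A, UTP3 and UTP6 take part in the small-subunit processome that matures ribosomal RNA in the nucleolus. Regions that peak lists of many proteins share are known to include open, strongly transcribed chromatin as well as repeated sequence.

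Shared regions formed the far end of a steep series. A single list accounted for 34573 regions, 2 lists for 12237, 3 for 6725, 4 for 5346, 5 for 3792, 6 for 2710 and 7 for 1496. From there the number dropped to 386 regions with 8 lists and 119 with 9. Regions with all lists were therefore 23.6% of the members (95% exact interval 19.9% to 27.5%). The members took up 2.43% of the peaks of knock-in library 1 and 2.22% of those of library 2, which is 2.32% ± 0.15 (SD, n = 2). They took up 2.90% of the overexpressed PSPC1 list, 4.77% of hnRNPU, 4.05% of SAFB, 5.41% of SAFB2, 5.16% of CIRH1A, 3.57% of UTP3 and 1.31% of UTP6. No list thus had more than 5.41% of its peaks in regions with at least 8 lists. The count rests on the knock-in lists and on the overlap rule: with at least 7 of 8 lists it was 903 without knock-in library 1 and 759 without library 2, and a reciprocal overlap of 50% left 223 regions. Taking an equal number of the highest peaks from every list left 108.

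**Figure D1:**
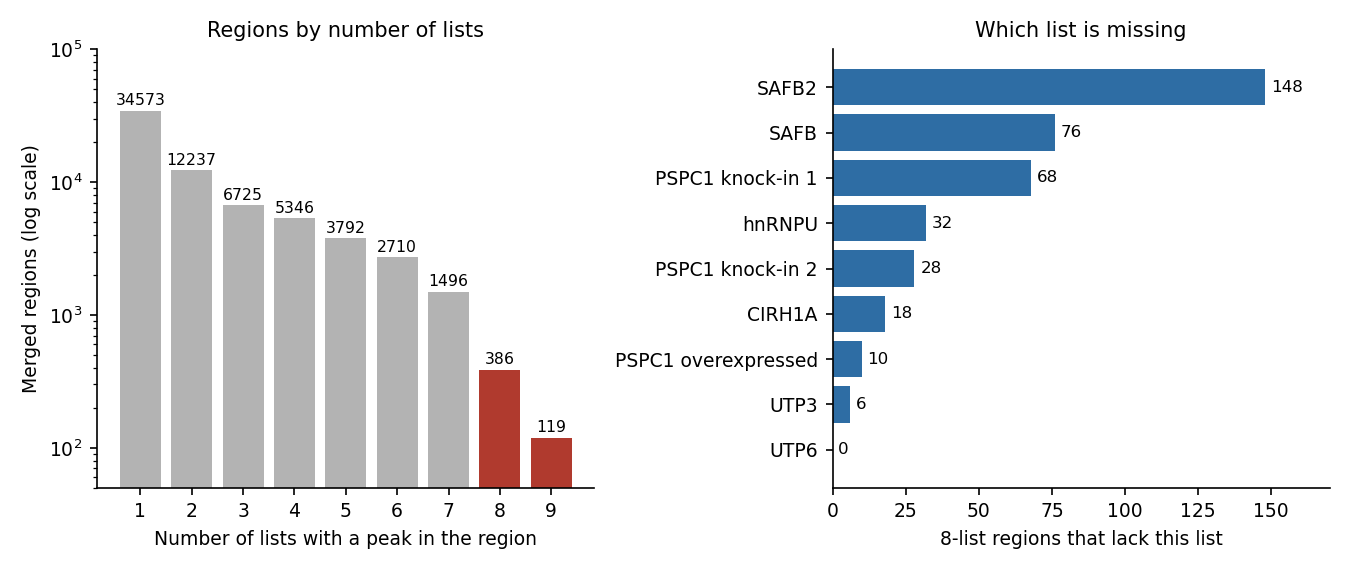
Left, merged regions (log axis) by the number of lists with a peak, with the 386 regions in 8 lists and the 119 in all 9 in red. Right, the 8-list regions counted by the list that is missing, from 148 for SAFB2 to 0 for UTP6.

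SAFB2, a scaffold attachment factor that binds AT-rich DNA and RNA, was the list most often missing. It was absent from 148 of the 386 regions with 8 lists, 38.3% (33.5% to 43.4%). Its paralog SAFB was absent from 76, 19.7% (15.8% to 24.0%), so that one of this pair accounted for 224 of the 386 regions (58.0%). SAFB2 also had the shortest list, with 6670 peaks, against 10632 for SAFB, and with the 6670 highest peaks of each list it was absent from 18.5%. List length did not order the rest: CIRH1A, with 9689 peaks, was absent from 18 regions, and hnRNPU, with 10279, from 32. The longest list, UTP6 with 40217 peaks, was absent from 0 of 386, which allows a share of up to 0.777% by a limit of 3 counts and 0.951% by the exact interval.

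For PSPC1, knock-in library 1 (18455 peaks) was missing from 68 regions, 17.6% (13.9% to 21.8%), and library 2 (22926 peaks) from 28, 7.25%. The overexpressed PSPC1 list, with 22785 peaks, was missing from 10 regions and UTP3, with 14562, from 6. The knock-in libraries are replicates of 1 line, and the one with fewer peaks was missing more often. The nearest peak of the missing list lay a median of 101000 bp away over the 386 regions, within 1 kb in 5 of them and within 5 kb in 25. By list, this median was 123649 bp for SAFB2, 112102 bp for SAFB and 125124 bp for CIRH1A, and it was shorter for overexpressed PSPC1, at 15957 bp. Within 5 kb lay 3 of 10 for overexpressed PSPC1, 4 of 28 for knock-in library 2 and 7 of 148 for SAFB2. How far other regions lie from the peaks of these lists was not measured.

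Just outside the rule stood the 1496 regions with 7 lists. Of these, 731 (48.9%) lacked SAFB and SAFB2 together and 188 (12.6%) lacked both knock-in libraries. Another 96 lacked knock-in library 1 and SAFB2, and 72 lacked hnRNPU and SAFB2. Absences at 7 lists thus often came in pairs of related libraries. Within the 505 members, both SAFB proteins were listed at 281 (55.6%) and both knock-in libraries at 409 (81.0%).

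Scores were compared by percentile within each list, where 100 is the highest, because the unit of the deposited score is not stated and the lists end at different minima. Both knock-in lists reach down to a score of 30 and the overexpression lists to about 50. The lists also run from 6670 peaks (SAFB2) to 40217 (UTP6), and the same rank gives a higher percentile in a longer list. Peaks of the processome proteins ranked higher in the shared regions than in regions with 2 to 7 lists. The median percentile of the highest UTP6 peak was 95.2 over the members, against 64.2 over regions with 2 to 7 lists. UTP3 stood at 84.2 against 50.4, and CIRH1A at 80.9 against 49.9. Regions with 7 lists lay nearer to the members, with medians of 90.5 for UTP6, 74.3 for UTP3 and 66.8 for CIRH1A.

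hnRNPU followed at 79.1 in the members against 56.4 in regions with 2 to 7 lists. SAFB2 stood at 64.1 against 53.6, and SAFB at 53.7 in both classes. SAFB peaks in the shared regions were therefore of middling rank in their list, and 196 of 429 (45.7%) lay below percentile 50. Overexpressed PSPC1 had a median of 80.9 against 56.4. The knock-in libraries had 67.9 and 73.5, which is 70.7 ± 4.0 (SD, n = 2), against 62.2 and 61.7. In regions with 7 lists the knock-in medians were 69.9 and 72.3, so library 1 was higher there than in the members. UTP6 lay above this knock-in mean by more than the 5.65 between the replicates, as did UTP3, CIRH1A, hnRNPU and overexpressed PSPC1, and both SAFB lists lay below it by more than that gap. These differences have no replicate check on the overexpression side. They hold for percentiles in lists of unlike length, and the order of the lists by rank can differ.

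**Figure D2:**
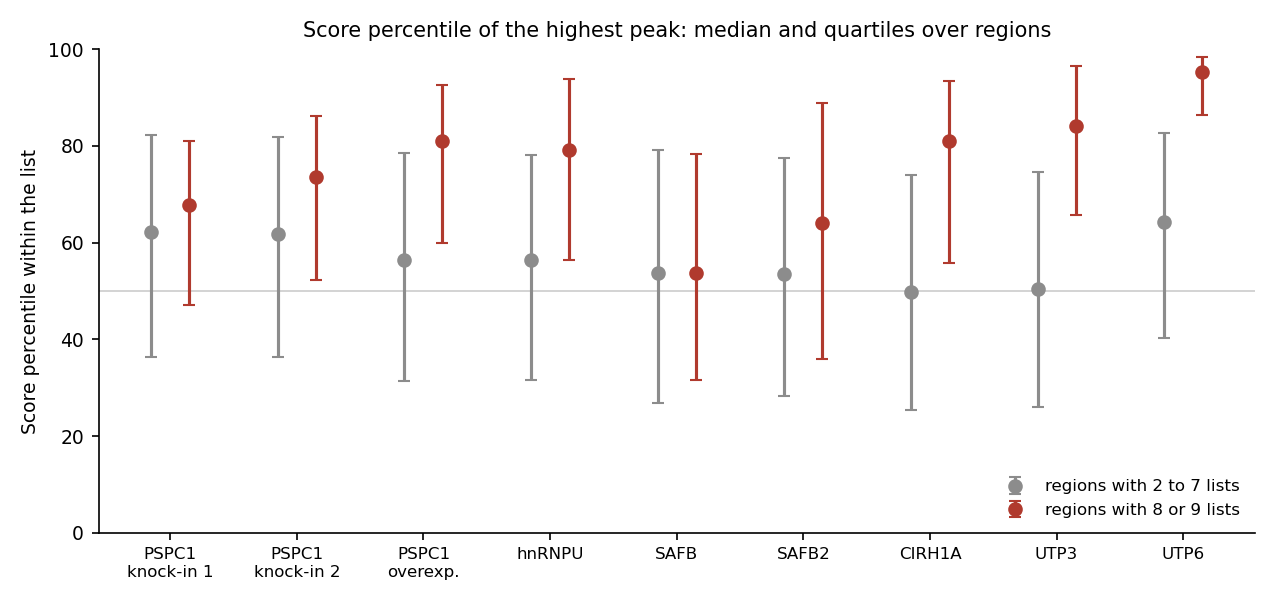
Median (points) and quartiles (bars) of the score percentile of the highest peak of each list, over the 505 regions with 8 or 9 lists (red) and over regions with 2 to 7 lists (grey) that hold a peak of that list. UTP6 lies highest at 95.2, and SAFB has the same median, 53.7, in both classes.

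Peaks in the highest 10% of each list were counted next. Among members with a UTP6 peak, 337 of 505 (66.7%) had it at or above percentile 90, where 10.2% of all regions with a UTP6 peak do. For UTP3 this was 197 regions (39.5%, background 10.1%), for CIRH1A 162 (33.3%, background 10.1%) and for hnRNPU 163 (34.5%, background 10.1%). Overexpressed PSPC1 had 161 (32.5%, background 11.3%). SAFB2 had 84 (23.5%, background 10.1%) and SAFB 64 (14.9%, background 10.0%). Knock-in library 2 had 66 (13.8%, background 10.0%), and library 1, with 42 (9.61%, background 10.0%), was at its background. The rule did not ask for high scores, yet it used the same peaks, so these shares are a description. By this count SAFB2 stood above both knock-in libraries, whereas by median percentile it stood below them. SAFB, also below them by median, exceeded library 2 in this count by less than the 4.23 points between the replicates.

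Few regions were strong in every list. Only 2 of the 505 had a percentile of at least 90 in each list present, and 81 (16.0%) had at least 50 in each. The highest percentile of a region belonged to UTP6 in 282 cases (55.8%), to overexpressed PSPC1 in 64 and to hnRNPU in 58. The lowest belonged to SAFB in 117, to knock-in library 1 in 94 and to SAFB2 in 81. Averaged over the lists present, the mean percentile of a region had a median of 70.2 (68.9 to 71.8) and ranged from 31.2 to 99.6. It was 76.0 in regions with all 9 lists, 69.1 with 8 and 67.5 with 7, so the regions just inside and just outside the rule lay close together.

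**Figure D3:**
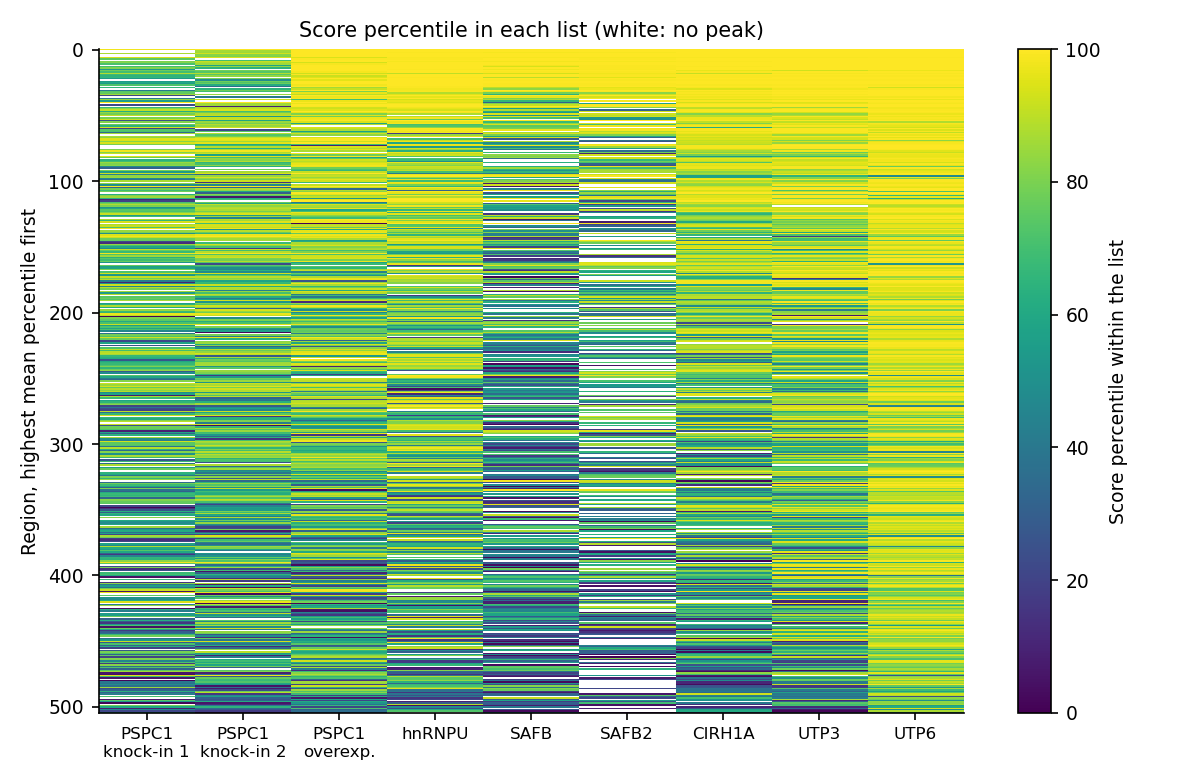
Score percentile of the highest peak in each list (columns) at each of the 505 shared regions (rows), with the highest mean percentile at the top and white where a list has no peak. UTP6 stays high down most of the plot, SAFB and SAFB2 fall off first, and the knock-in lists are lower than the other lists in the highest group, at medians of 77.4 and 83.2.

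When the members were ordered by mean percentile and cut into 4 groups of near equal size, the lists moved over different ranges. From the highest group (127 regions) to the lowest (126), the median for SAFB2 went from 93.6 to 31.0, for SAFB from 86.7 to 37.5 and for CIRH1A from 96.6 to 51.7. Overexpressed PSPC1 went from 94.5 to 60.1, hnRNPU from 96.9 to 60.6, UTP3 from 98.5 to 63.8 and UTP6 from 99.2 to 85.9. The knock-in medians went from 77.4 to 55.2 and from 83.2 to 59.3. Knock-in library 1 was missing from 23 regions of the highest group and 16 of the lowest, and SAFB2 from 18 and 45. Knock-in medians thus went down along the same order but over a narrower range than every overexpression list except UTP6, which moved least. Every list enters the mean by which the groups were made.

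The strongest region with all 9 lists was chr17:39979445-39986238, 6794 bp wide, with a mean percentile of 99.6. Its scores were 2481.11 and 3100 in the knock-in libraries, 3100 for overexpressed PSPC1, 1347.47 for hnRNPU, 931.67 for SAFB, 1025.89 for SAFB2 and 3100 for each of CIRH1A, UTP3 and UTP6. It had 1 peak in each list, every peak was close to the full width (5933 bp to 6650 bp), and the midpoints lay within 324 bp. A value of 3100 is where the highest scores pile up, and ties share a rank: the region ranked 1 for overexpressed PSPC1, 2 for CIRH1A and UTP3, 3 for UTP6, 16 for SAFB and SAFB2, 23 for hnRNPU, and 366 and 7 in the knock-in libraries. Mouse chromosome 17 is known to carry a copy of the 45S ribosomal RNA precursor in genome builds of this age; whether this region lies on it was not tested, since no mm9 annotation was used.

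The second, chrX:166526685-166527607, was only 923 bp wide and showed a contrast between the lines. It ranked 1 for overexpressed PSPC1 and for hnRNPU, 8 for SAFB, 6 for SAFB2, 2 for CIRH1A and UTP3 and 3 for UTP6. In the knock-in libraries it ranked 2350 and 1598, with scores of 211.3 and 352.43. With ties sharing the best rank, no overexpression list thus ranked it below 8, and overexpressed PSPC1 had 10 peaks tied at 3100.

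Only chr15:91736587-91741242 kept at least percentile 93.7 in every list besides the chromosome 17 region. It held 16 peaks over 4656 bp, with a mean percentile of 97.4. The knock-in libraries (93.7 and 94.9) and overexpressed PSPC1 (94.2) were its lowest lists, and the other 6 proteins had at least 98.6.

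The next regions were narrow and again had lower knock-in percentiles. chr3:8244787-8246978 had 80.1 and 91.3 in the knock-in libraries and at least 98.2 in the other 7 lists. chr13:13952510-13953765, which ranked 7 for hnRNPU, had 81.1 and 88.0. chr12:94815013-94816179 had 71.4 and 85.6 and at least 98.7 in the other 7 lists. All 3 lay lower in both knock-in libraries than in every overexpression list. The same held for chr4:152526660-152527885 (69.6 and 83.5), for chr3:148715000-148716370 (69.6 and 73.8) and for a stretch of chr9_random from 241879 to 243708 (77.1 and 78.7). At chr3:5859911-5861557, which ranked 2 for CIRH1A, UTP3 and UTP6, the knock-in percentiles were 80.8 and 64.8. In 9 of these 10 strongest regions all 7 overexpression lists thus had higher percentiles than both knock-in libraries. The chromosome 15 region was the exception, with overexpressed PSPC1 at 94.2 between 93.7 and 94.9. Over all 119 regions with 9 lists, that order held at 30. At the chromosome 17 region it rests in part on ties. Knock-in library 2 scored 3100 there, as did overexpressed PSPC1, CIRH1A, UTP3 and UTP6. In that library 280 peaks reached at least 3100, against 10 or fewer in each overexpression list, so a tie gave only percentile 99.4. The mean that chose these 10 regions also covers 7 overexpression lists and 2 knock-in lists.

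At the other end, 3 regions with all 9 lists rested on weak peaks. At chr1:74330221-74336406 the mean percentile was 42.6, with knock-in scores of 30.31 and 31.53, next to the minimum of those lists, and the highest value in UTP6, at 82.5. chr1:141349809-141352844 had a mean of 47.7, with 92.8 for CIRH1A and 93.3 for UTP6 but 6.20 for SAFB2. chr5:28919683-28920586 had a mean of 50.1, with 95.4 for hnRNPU and 6.71 in knock-in library 2. In each of them, at least 1 of the 9 peaks stood near the lower end of its list.

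Among regions that lacked 1 list, the strongest was chr9:35112420-35113658, 1239 bp wide, with a mean percentile of 98.3. It lacked knock-in library 1. It ranked 1 for overexpressed PSPC1, hnRNPU, SAFB, SAFB2, CIRH1A and UTP3 and 3 for UTP6, while knock-in library 2 gave it a score of 178.81 and rank 3064. A region at the top of 6 overexpression lists, alone or tied, was thus absent from 1 library of endogenously tagged PSPC1 and modest in the other. chr5:37051833-37052942, which lacked knock-in library 2, was alike, with 74.9 in library 1 and at least 99.3 in the other 7 lists.

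The strongest regions without another list had lower means. chr1:167389139-167392457 lacked SAFB2 and had a mean of 89.2, with 69.9 for overexpressed PSPC1 as its lowest value. chr8:107692564-107696123 lacked SAFB (mean 86.8, SAFB2 at 50.5), and chr14:6091714-6098165 lacked hnRNPU (mean 87.0, SAFB at 51.5). chr6:114563912-114565347, which lacked overexpressed PSPC1, held 99.0 for UTP3 and 98.2 for CIRH1A. chr14:22317441-22322084 lacked UTP3 (mean 79.1, hnRNPU at 97.9). chr11:96129982-96139949, 9968 bp wide, lacked CIRH1A; its knock-in percentiles were 98.0 and 99.4, UTP3 had 16.8 and UTP6 ranked 10069 of 40217 peaks, above SAFB2 in percentile. In the last of these the knock-in libraries had the highest percentiles of the 8 lists, whereas at the chromosome 9 region the remaining one had the lowest.

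The 3 strongest regions just outside the rule, with 7 lists, all lacked both knock-in libraries. They were a stretch of chrUn_random from 5495055 to 5497368, chr2:98505909-98507927 and chr15:74915454-74917978, each with a mean percentile of at least 99.9. All 3 scored 3100 for overexpressed PSPC1, CIRH1A, UTP3 and UTP6. The highest peaks that the 7 overexpression lists have in common were therefore in part outside the 505 regions because the knock-in lists did not hold them.

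Counted over the series, 403 regions carried a peak of all 7 overexpression lists. Both knock-in libraries were listed at 119 of them (29.5%), 1 at 96 (23.8%) and none at 188 (46.7%). The median of the mean overexpression percentile was 77.9 with both knock-in libraries, 77.7 with 1 and 73.1 with none. In 54 of the 403, all 7 overexpression lists had a percentile of at least 90. Of these 54, 21 held both knock-in libraries, 13 held 1 and 20 held none. The 34 of them that are members were narrow, with a median width of 1269.5 bp, and their midpoints lay within a median of 232.5 bp. Over the 54, knock-in percentiles had medians of 69.6 in library 1 (24 regions) and 78.7 in library 2 (31 regions).

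Endogenously tagged and overexpressed PSPC1 could be set side by side at 399 members with peaks in all 3 libraries. The knock-in mean was lower by a median of 7.55 percentile points (difference -7.55). Overexpressed PSPC1 was above both knock-in libraries at 224 (56.1%) and below both at 91 (22.8%). The replicates themselves differed by a median of 11.3 points (quartiles 4.12 and 24.0, 409 regions), with library 2 higher at 285 (69.7%). Regardless of sign, the knock-in mean and overexpressed PSPC1 differed by a median of 15.4 points. The region most in favour of the knock-in was chr3:93246931-93252430, with 97.8 and 98.3 against 30.3 for overexpressed PSPC1. The opposite extreme was chr4:119093910-119096176, with 6.02 and 9.23 against 81.9. Both regions were chosen by this difference. With the knock-in mean so near an end of the scale, the choice itself leaves the replicates little room to lie apart.

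Percentiles were also correlated between lists across the members, as a description over regions that share libraries and mappability. Spearman's rho was 0.71 between UTP3 and UTP6, 0.63 between CIRH1A and UTP3 and likewise 0.63 between the knock-in libraries, 0.59 between CIRH1A and UTP6, and 0.53 between SAFB and SAFB2, each over the regions of the 505 that hold both lists. Over all 15 pairs of the 6 proteins other than PSPC1, rho ran from 0.32 to 0.71. Between a knock-in library and those proteins it ran from -0.15 to 0.03. Overexpressed PSPC1 had 0.28 with knock-in library 1 and 0.42 with library 2, and from 0.16 (UTP3) to 0.34 (CIRH1A) with the other 6 proteins. Ranks in the knock-in libraries thus went with each other and with overexpressed PSPC1, and hardly with the other 6 proteins. For the knock-in libraries, regions with 2 to 7 lists showed the same: 0.73 between the replicates, 0.37 and 0.39 with overexpressed PSPC1, and -0.17 to 0.05 with the other proteins. Among the 6 other proteins rho was lower there, from 0.11 to 0.56, and all 15 pairs had a higher rho in the members.

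Shared regions were broad. Their median width was 2868 bp (quartiles 2190 and 4132, range 432 to 12950), against 2607 bp for regions with 7 lists, 1740 bp with 2 to 7 and 888 bp with 1. Width rose step by step with the number of lists. A merged region widens with each list it takes in, so single peaks were compared as well. Their widths are not free of the rule either, since a wider peak overlaps other lists more easily. UTP6 peaks had a median of 1800 bp in members against 1178 bp in regions with 2 to 7 lists, UTP3 1395 against 969 and CIRH1A 1104 against 850. Overexpressed PSPC1 had 510 bp against 348 and hnRNPU 1094 against 865. SAFB (1947 against 1891) and the knock-in libraries (1790 against 1748, and 1849 against 1633) differed less. Peaks of 6 lists were thus wider by at least 1.18 times in the shared regions, and SAFB2 (1564 against 1321) stood at that lower bound. A single peak per list made up 314 regions (62.2%). The exception was overexpressed PSPC1, which had at least 2 peaks in 146 members, against 28 or fewer for each other list.

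Peaks mostly met at a common base. In 401 of the 505 regions (79.4%, 75.6% to 82.9%) at least 1 base was covered by every list present, against 93.7% of all regions with at least 2 lists, which have fewer lists to bring together. This held for 105 of the 119 regions with 9 lists (88.2%) and 296 of the 386 with 8 (76.7%). In 86 others all lists but 1 met and in 18 all but 2, so chains of peaks that never meet were not how most regions reached the rule. The common stretch had a median of 430 bp (8 to 5888).

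Midpoints coincided less closely than overlap alone would show. The distance between the outermost midpoints had a median of 867 bp (quartiles 520 and 1373, range 30 to 6578.5). It was at most 500 bp in 117 regions (23.2%), against 66.5% of all regions with at least 2 lists, a comparison that favours fewer lists. It exceeded 1000 bp in 211 (41.8%). In regions with 9 lists, 37 (31.1%) lay within 500 bp, and in those with 8, 80 (20.7%).

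The processome proteins lay closest to each other. Median distances between the midpoints were 98.5 bp for UTP3 and UTP6, 117.5 bp for CIRH1A and UTP3, and 127.5 bp for CIRH1A and UTP6. hnRNPU and UTP6 were 151 bp apart and the knock-in replicates 165.5 bp, so the 3 nucleolar proteins coincided more closely than replicates of 1 protein. SAFB and SAFB2 were 249.5 bp apart. SAFB lay 371 to 495 bp from the 7 lists other than SAFB2, and SAFB2 245.5 to 371.5 bp from those lists. The 21 pairs without a SAFB protein ran from 98.5 to 235.5 bp. SAFB peaks therefore stood off-centre from the other peaks, and not only in the members. In regions with 2 to 7 lists, SAFB lay 337 bp (CIRH1A) to 508.5 bp (knock-in library 1) from the 7 lists other than SAFB2. The processome pairs there were 100 bp (UTP3 and UTP6) to 111 bp (CIRH1A and UTP6) apart. In the members, SAFB peaks were also the widest of the 9 lists, at 1947 bp. The part of width in these distances was not tested.

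**Figure D4:**
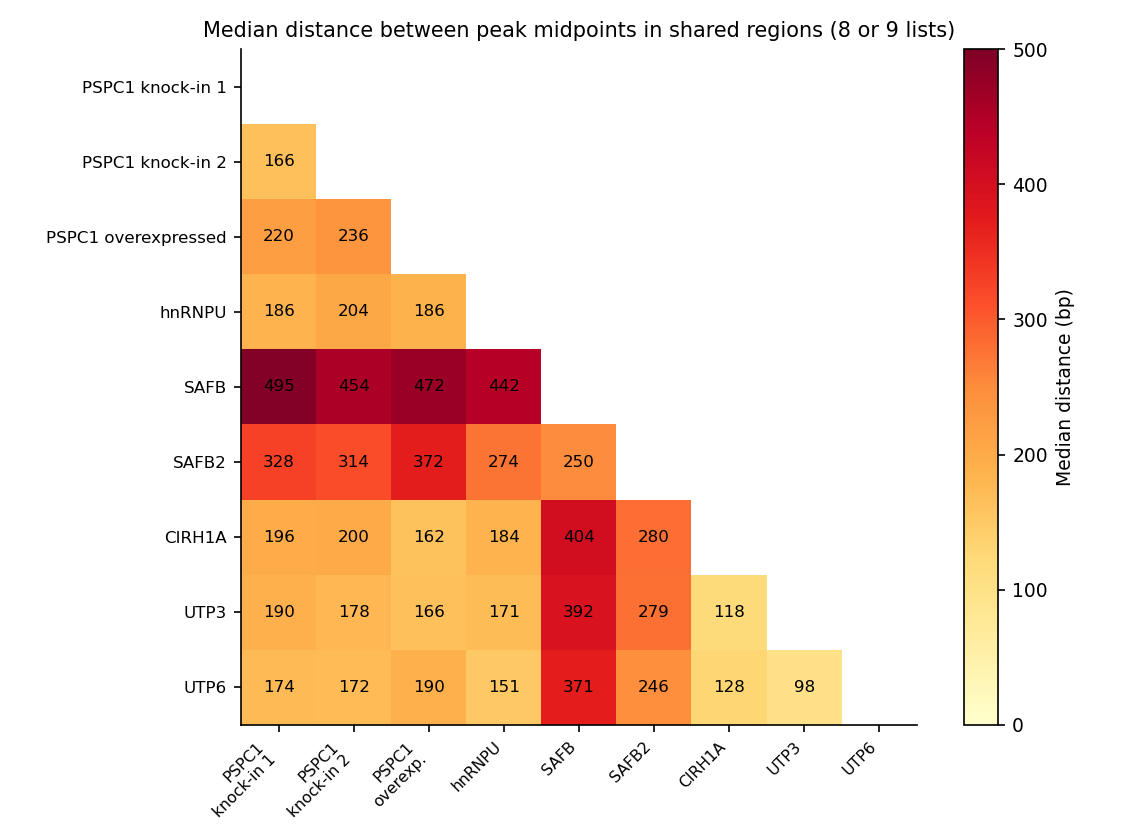
Median distance in bp between the midpoints of the highest peaks for each pair of lists, over the shared regions that hold both. Distances are shortest among CIRH1A, UTP3 and UTP6 (98.5 to 127.5 bp) and longest for SAFB (up to 495 bp).

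Tight and loose regions differed in rank. With the members cut into 4 groups by midpoint spread, the closest group had these medians: the spread was 324 bp, the width 1760 bp and the mean percentile 79.3. In the loosest group these were 1935.25 bp, 4950 bp and 67.2. Median percentiles went from 95.6 in the closest to 75.6 in the loosest group for hnRNPU, from 89.7 to 58.3 for SAFB2, from 95.1 to 73.4 for CIRH1A and from 96.2 to 75.9 for UTP3. In the knock-in libraries they did not go down, with 65.1 and 73.0 in library 1 and 73.8 and 75.5 in library 2. Over the 505 regions, rho between spread and mean percentile was -0.27. The closest group thus ranked higher than the loosest for these overexpressed proteins and not for knock-in PSPC1. Most of the fall lay between the closest group and the next. Medians in that second group were already 74.9 for hnRNPU, 53.3 for SAFB2, 73.2 for CIRH1A and 81.7 for UTP3. From there to the loosest group only UTP3, of these proteins, went down further.

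The extremes show both kinds. The closest midpoints, within 30 bp, were found on chrUn_random from 3658492 to 3658986, a 495 bp region with 9 lists, at least 98.9 in all 7 overexpression lists and 68.1 and 74.2 in the knock-in libraries. chrUn_random from 3636037 to 3636468 (44.5 bp spread, 432 bp wide) was the narrowest of all. chr15:59972885-59973825 followed at 110 bp and lacked knock-in library 2. The widest was chr1:74136141-74149090, at 12950 bp with a spread of 6578.5 bp; the knock-in percentiles were 95.6 and 97.5, CIRH1A had 7.54 and UTP3 was missing. chr1:173175105-173183545 (6100.5 bp) and chr1:88419900-88430936 (5869 bp) had knock-in percentiles from 92.2 to 95.9. chr17:6485030-6497094, 12065 bp wide, was the other very wide region, with 65.3 and 79.0.

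Chromosome 1 held 125 of the 505 regions, 24.8% (21.0% to 28.8%), where 12.8% of all merged regions and 10.7% of those with 2 to 7 lists lie. Among the regions with 9 lists it held 33 of 119 (27.7%). Knock-in library 1 itself placed 4137 of its 18455 peaks there (22.4%) and library 2 placed 4355 of 22926, while the 7 overexpression lists placed 7.93% to 10.9%. Among the 403 regions with all 7 overexpression lists, chromosome 1 held 2.66% of those without a knock-in peak, 9.38% of those with 1 library and 27.7% of those with both. The share of shared regions on chromosome 1 thus went with the presence of knock-in peaks, and the part that the knock-in line or its lists play in it was not tested.

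Regions on chromosome 1 also looked different from the rest. Both knock-in libraries were listed at 116 of 125 (92.8%), against 293 of 380 elsewhere (77.1%). Knock-in medians were 75.6 and 83.7 on chromosome 1 and 65.8 and 69.9 elsewhere, while SAFB had 47.8 against 58.7 and SAFB2 52.6 against 66.2. UTP6 (94.6 against 95.6) and overexpressed PSPC1 (81.0 against 80.9) hardly differed. Over all peaks of the knock-in lists the direction was the opposite: the median percentile was 45.0 on chromosome 1 and 51.5 elsewhere in library 1, and 47.4 and 50.5 in library 2. Of the 148 regions that lacked SAFB2, 48 lay on chromosome 1, as did 5 of the 68 that lacked knock-in library 1. The regions were spread along the chromosome: each of its 20 bins of 10 Mb held at least 1, and none more than 13.

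**Figure D5:**
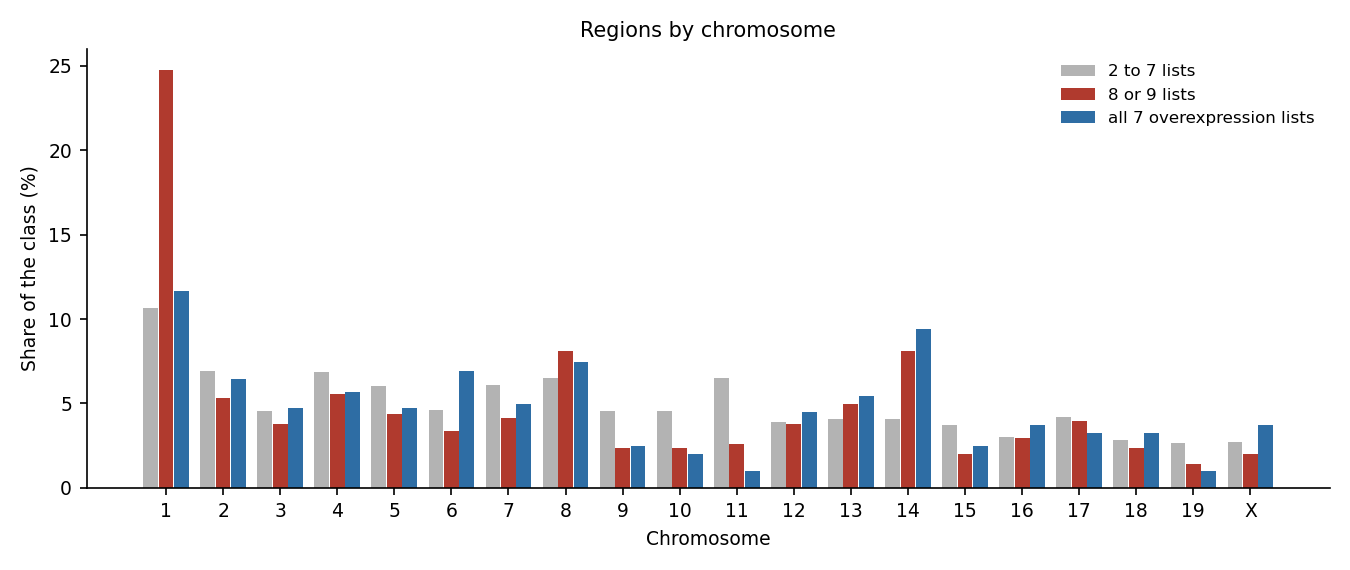
Share of each class of regions on each chromosome, for regions with 2 to 7 lists (grey), the 505 with 8 or 9 lists (red) and the 403 with all 7 overexpression lists (blue). Chromosome 1 holds 24.8% of the red class and 11.7% of the blue, and chromosome 14 is above the grey class in both.

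Chromosome 14 held 41 regions (8.12%, against 4.23% of all merged regions), 16 of them with 9 lists. Here the regions were clustered. The first 10 Mb held 23 of the 505 (4.55%, where 0.850% of all regions lie) and 12 of the 119 with 9 lists (10.1%), between 3915212 and 8493190. No other bin of that size in the genome held more than 13. Of the 403 regions with all 7 overexpression lists, 22 (5.46%) lay in this cluster. Those 403 include the 119 regions with 9 lists, so this share is not free of the knock-in lists. Its regions were wide, with a median of 4233 bp and 10 peaks, and 7 of 23 had 1 peak per list. Median percentiles were highest for hnRNPU at 90.7, UTP6 at 90.4 and CIRH1A at 89.3, with UTP3 at 86.5, SAFB2 at 83.5, overexpressed PSPC1 at 81.7, SAFB at 63.2, and the knock-in libraries at 75.6 and 72.1. These lists ranked the cluster above their median over all members, UTP6 and knock-in library 2 excepted.

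Sequence without a position on a chromosome held 9 regions (1.78%, against 0.898% of those with 2 to 7 lists and 1.32% of those with 1). It held 5 of the regions with 9 lists (4.20%) and 4 of those with 8 (1.04%). Of the 9 regions, 7 lay on chrUn_random and 1 each on chr9_random and chrY_random. They were narrow, with a median of 1064 bp and a midpoint spread of 271.5 bp. Their medians in the overexpression lists ran from 97.4 for CIRH1A to 99.7 for SAFB, and the knock-in medians were 55.1 and 58.4. Unplaced sequence in a genome build is known to be rich in repeats, where reads from several copies can gather; copy number and mappability were not measured here. Without these regions and the chromosome 14 cluster, 473 members and 102 with 9 lists remained. No member lay on the assembled chromosome Y or in the mitochondrial genome.

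Most neighbouring shared regions lay at least 1 Mb apart, and how their spacing compares with that of other regions was not tested. Of 482 gaps between neighbours on the same chromosome, 38 were under 100 kb and 159 under 1 Mb, including 64 of 124 on chromosome 1 and 25 of 40 on chromosome 14. The closest neighbours were chrUn_random 3632196 to 3632967 and 3636037 to 3636468, 3069 bp apart. Next came chr1:167563400-167566580 and chr1:167570257-167573567, 3676 bp apart, and chr1:65223347-65227560 and chr1:65231415-65234330, 3854 bp apart. In both chromosome 1 pairs, 1 region had all 9 lists and its neighbour lacked a SAFB protein.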

How the data were processed

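FLAG-tag chromatin immunoprecipitation was read from 9 deposited peak lists of mouse embryonic stem cells. Per the submitters' processing notes, the tools were CASAVA, Bowtie2 and TopHat and the build was mm9, and peak names in the files carry MACS. The caller's version, threshold and control library are not given in the sources used here. Each deposited list gives start, end and a score whose unit the authors do not state, so scores were only ranked within a list, as mid-rank percentiles. Peak starts were converted to 1-based positions. Read depth behind the peaks is unknown.

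Peaks of all lists were merged at an overlap of at least 1 bp, and regions with a peak in at least 8 lists were kept. Where a list had several peaks in a region, the highest scoring peak gave its percentile, midpoint and width. Intervals are 95% exact (Clopper-Pearson) for shares and order-statistic for medians, and cover counting error only. Regions named were the extremes of mean percentile, midpoint spread, width and distance to the next member, the strongest region lacking each list, the strongest 7-list regions, and the largest differences between knock-in and overexpressed PSPC1. No test was run, since presence in the lists chose the regions and 1 library stands for each protein except knock-in PSPC1. The members and lists were chosen with earlier results of these data known.

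Alternatives changed the overlap rule, the score minimum, the chromosomes and the libraries. Merging was checked on simulated peaks. Tables were made with pandas 2.3.3 under Python 3.11.15, intervals with scipy 1.17.1, and plots with matplotlib 3.10.9. The gene tables at hand are of GRCm38.p6, not mm9, so no gene or sequence was assigned to a region. The other 49 of the 58 samples, inputs included, were not analysed here.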

Additional observations from a re-analysis of the deposited data

How the results depend on the processing

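The count of 505 regions in at least 8 lists and 119 in all 9 stayed within 1.5 times when chromosome 1 was left out (380 and 86), when chromosomes 1 to 19 and X alone were kept (496 and 114), and when runs of bases under at least 8 lists were counted (484 and 110). The share of members with a common base has no value in that last setting, since it holds by construction. Requiring a reciprocal overlap of 50% left 223 and 52 regions, with 30.4% of 8-list regions lacking SAFB2, a common base in 97.8% and a median mean percentile of 75.3. The highest scoring 50% of each list gave 113 and 34 regions, 25.3% lacking SAFB2, a common base in 92.9% and a median of 86.2. Taking 6670 peaks from every list gave 108 and 27 regions, 18.5% lacking SAFB2, a common base in 92.6% and a median of 83.9. Fewer peaks entered both of these settings. Merging peaks up to 500 bp apart lowered the common-base share to 74.5%, and windows of 500 bp around midpoints lowered it to 35.9% with a median of 71.9, because narrower intervals meet less often. A common score minimum of 50 left 356 and 86 regions and raised the median to 74.0.

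Leaving out 1 knock-in library and asking for at least 7 of 8 lists gave 759 to 903 regions, 147 to 187 in all lists, 27.9% to 34.1% lacking SAFB2, a common base in 80.0% to 80.1% and medians of 69.0 to 70.0. Without replicate 1 the counts were 903 and 187, and without replicate 2 they were 759 and 147. Leaving out both, with at least 6 of 7 lists, gave 1361 and 402 regions and a median of 67.9. That setting and the one without the first 10 Mb of chromosome 14 and the unplaced sequence (473 and 102) were chosen after seeing the data. No paired analysis was possible because replicates exist for just 1 of the lines with a peak list. For all other shifts the cause was not tested. Unknown depth and an unstated threshold limit what a missing peak means.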
